A study of Drosophila melanogaster with 2 samples.

Results

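The genes described here encode insulator and architectural proteins, the proteins that bind domain boundaries, promoters and interbands of fly chromosomes and help to organise chromatin into separate domains. They are Chro, Trl, mod(mdg4), Adf1, psq, pzg, Clamp, M1BP, CTCF and Cp190, 10 of 13968 protein-coding genes. They were chosen for their own peaks or lack of peaks in these data, so their counts and signals are given as a description, with no test. For each gene, every peak summit in its span or within 1000 bp of it was taken.

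The peaks come from chromatin immunoprecipitation with sequencing of Eip93F-GFP in whole Drosophila melanogaster prepupae of mixed sex and unknown age. The animals were of the strain Eip93F-MiMIC-GFP, in which an eGFP exon placed in an intron of Eip93F makes a fusion protein, and an antibody against GFP was used on chromatin sonicated to 200 to 800 bp. All samples carried this allele, and the labels name 2 biological replicates of 1 group without saying whether they came from separate crosses or days. Since whole animals were used, binding in few cells and weak binding in many cells cannot be told apart.

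E93, the product of Eip93F, is an ecdysone-induced transcription factor that directs adult development at metamorphosis. Insulator proteins such as CTCF bind DNA directly and act through shared cofactors, among them Cp190 and Mod(mdg4), to separate neighbouring regulatory regions. GAGA factor, the product of Trl, and the proteins Pipsqueak (psq) and CLAMP bind GA repeats, while M1BP binds a motif found in promoters of broadly expressed genes. Chromator (Chro) and Z4 (pzg) are partners at polytene interbands, the open stretches between the condensed bands.

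The authors deposited a list of 30000 entries, background included, for each replicate and for both replicates pooled, and a reproducible set of 3401 peaks drawn from them. The signal of a peak is the score of the authors' caller and can be compared within a list but not between lists. Ranks run from 1 for the highest signal, and the 3401 highest entries of a replicate are called its leading list here. All 3401 reproducible peaks are in the pooled list, with a lowest signal of 89.8163, and the next pooled signal was 89.8066. The set is thus a cut on pooled signal, and agreement of the replicates at each single peak is not implied. Of all 3401 summits, 106 (3.12%) had no match containing them in either leading list. The depth of the libraries is unknown. Of the 10 genes, 8 held at least 1 reproducible summit, against 19.9% of all protein-coding genes. CTCF and Cp190 held none. Since the genes were chosen on these peaks, nothing is read from that contrast.

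The sequences at the summits that distinguish the genes are given on dm6, from the RefSeq copy of that assembly, 5′ to 3′ on the strand of the named gene. Windows of 101 bases are centred on the summit, and windows that touch a UTR are limited to 30 bases. The Chro window holds the strongest peak of these genes (chr3L:22878891-22878920, minus strand), and the pair at Trl shares an interval but not a base composition (chr3L:14759424-14759524 and chr3L:14759625-14759725, minus strand). At mod(mdg4), 1 window lies near its start site (chr3R:21376368-21376468, minus strand) and 1 at the start of an internal precursor gene (chr3R:21365382-21365411, minus strand). The M1BP window (chr3R:8731863-8731963, minus strand) has the lowest GC content of all reproducible summits. The windows at Cp190 (chr3R:15275277-15275377, minus strand) and CTCF (chr3L:7356744-7356844, minus strand) belong to entries outside the reproducible set, from replicate 1 and from the pooled list. Capitals mark GAGAGAGA and TGATAAG, words that were searched for.
Chro, 5′ UTR summit: actggactgcagttagtttaaagctatcga
Trl, stronger intronic summit: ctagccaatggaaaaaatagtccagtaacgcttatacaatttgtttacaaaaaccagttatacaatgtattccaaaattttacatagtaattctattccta
Trl, weaker intronic summit: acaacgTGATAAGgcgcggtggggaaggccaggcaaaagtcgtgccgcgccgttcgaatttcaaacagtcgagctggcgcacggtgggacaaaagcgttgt
mod(mdg4), summit near the start site: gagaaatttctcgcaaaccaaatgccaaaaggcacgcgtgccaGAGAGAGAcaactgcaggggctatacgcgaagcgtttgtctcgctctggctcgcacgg
mod(mdg4), internal summit: tatgtttacttgagtatagtaatattaaag
M1BP: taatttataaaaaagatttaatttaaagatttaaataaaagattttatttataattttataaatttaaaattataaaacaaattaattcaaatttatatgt
Cp190, replicate 1 entry: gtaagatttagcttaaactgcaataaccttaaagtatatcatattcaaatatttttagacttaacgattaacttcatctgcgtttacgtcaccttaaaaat
CTCF, pooled entry: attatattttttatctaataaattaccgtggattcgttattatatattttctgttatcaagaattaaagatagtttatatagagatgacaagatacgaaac

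Chro, a chromodomain protein of interbands and domain boundaries, held the strongest peak among these genes. The gene (FBgn0044324) lies on the minus strand of 3L at 22873702 to 22878984. Its main peak, at 22878737 to 22879089, had a signal of 1073 in the pooled reads and ranked 7 of 3401. It ranked 4 in replicate 1, with a signal of 648, and 12 in replicate 2, with a signal of 429. The summits in the replicates were 33 bp apart. The summit lay in the 5′ UTR, 78 bp downstream of the first start site, and 183 bp from the start of Ssl1, which encodes a subunit of the general transcription factor TFIIH. The Chro and Ssl1 starts face away from each other and are 105 bp apart, so that the peak covers both. Of the genes with a reproducible summit, 99.6% had a lower strongest signal than Chro.

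A weaker Chro summit lay at 22878259 in an intron, 75 bp upstream of an internal start site of the gene at 22878184. Its signal was 100.3 and its rank 2810. It ranked 6399 in replicate 1, outside the leading list, and 2140 in replicate 2. The replicate summits were 2 bp apart although the ranks differed.

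pzg encodes Z4, a zinc finger protein that partners Chromator, and its peak was below the median signal of the reproducible set. The gene (FBgn0259785) lies on the plus strand of 3L at 21286099 to 21290310. Its only reproducible summit, at 21285571, had a signal of 116 and a rank of 2161. The ranks in replicates 1 and 2 were 2715 and 1057, with signals of 57.6 and 77.9. The replicate summits were 121 bp apart, the widest gap among the 19 summits contained in a peak of each replicate. The summit stood 528 bp upstream of the pzg start and inside an intron of CG12974, whose nearest start was 135 bp away. It is therefore in the pzg locus by the 1000 bp flank alone. The nearest further reproducible summit was 3196 bp from the gene, with a signal of 180.

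**Figure D1:**
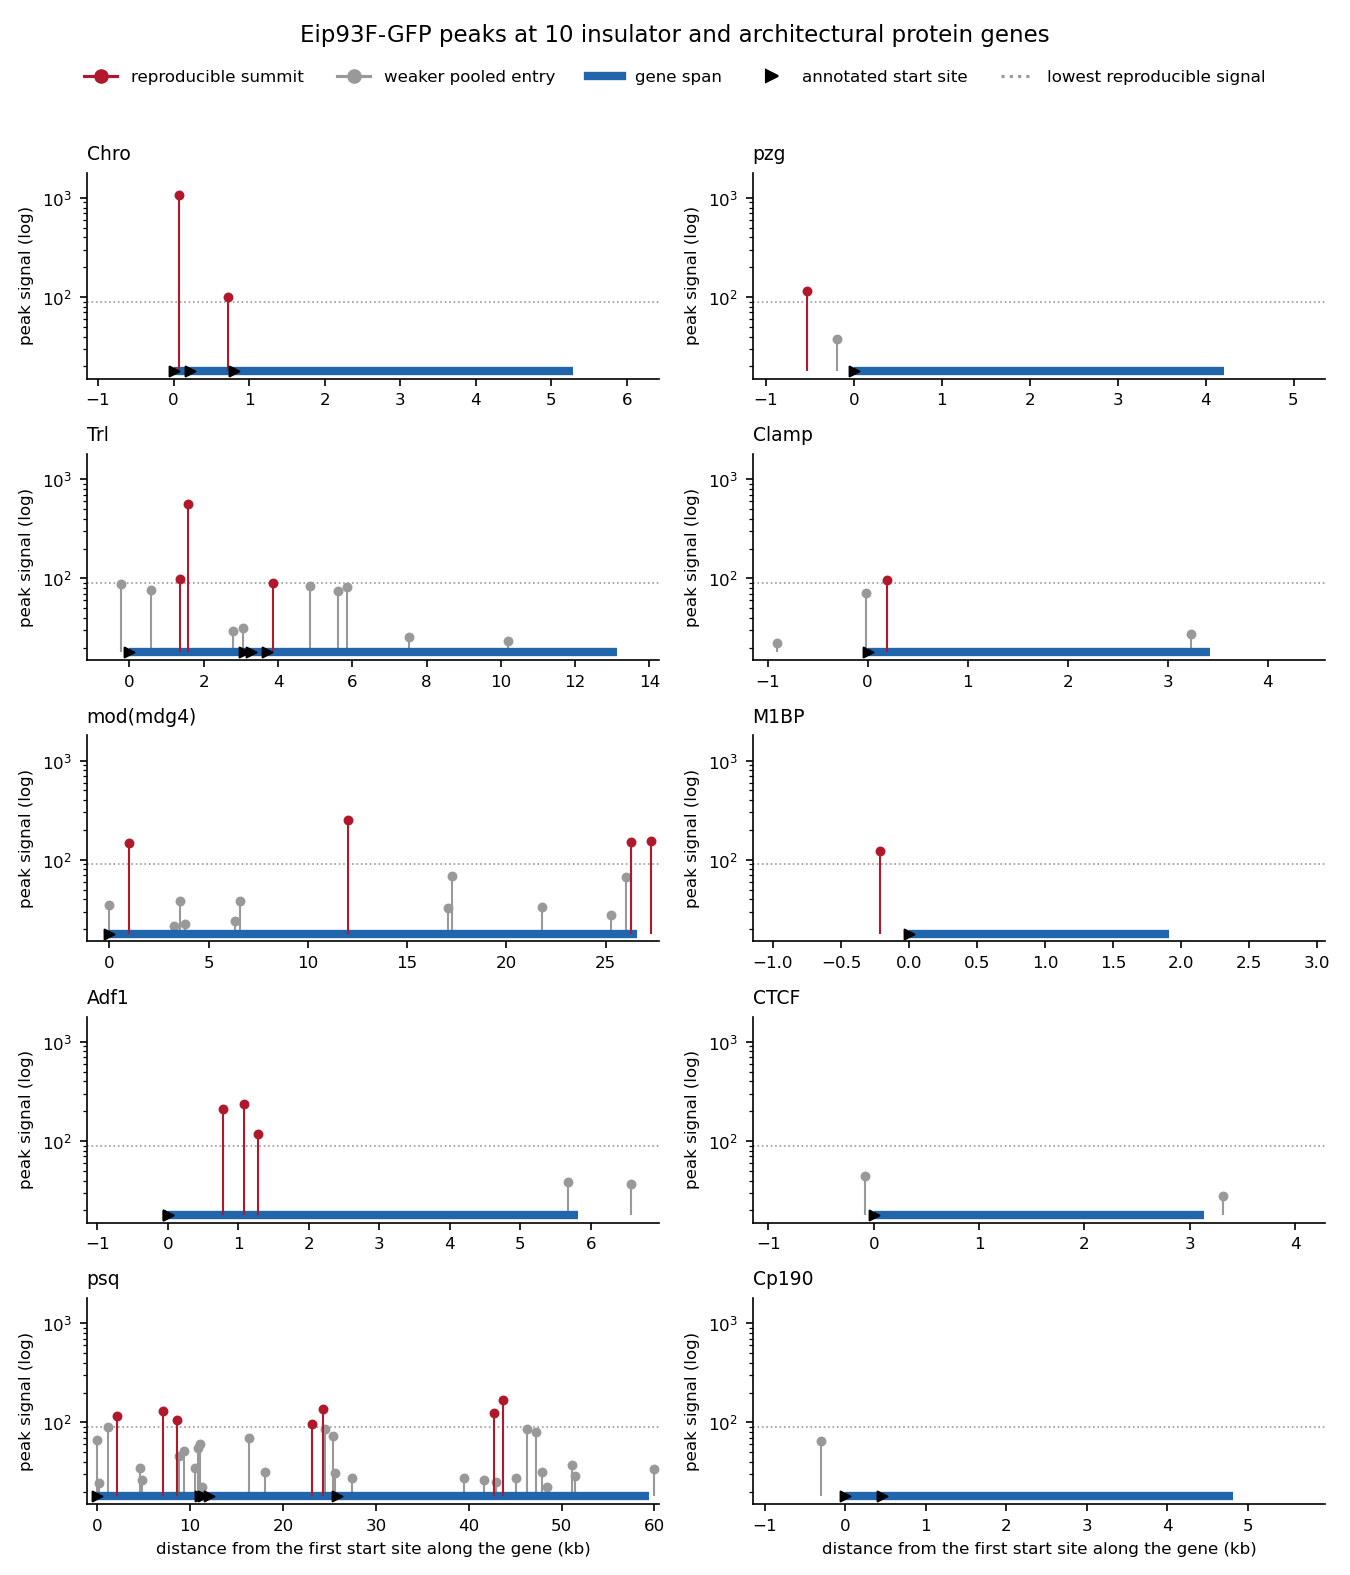
Reproducible summits, the remaining pooled entries and annotated start sites of the 10 genes, drawn along each locus by distance from its first start site in the direction of transcription (kb). The height of each line is the signal in the pooled list on a log scale, and the Chro peak of 1073 and the Trl peak of 560 stand above all others, while CTCF and Cp190 have weaker entries alone.

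Among the GA-repeat binders, Trl had the strongest peak and psq the most summits, and the only summit of Clamp was weaker than the strongest summit of either. Trl encodes GAGA factor, which opens chromatin at promoters and Polycomb response elements. The gene (FBgn0013263) lies on the minus strand of 3L at 14747929 to 14761049 and has 4 start sites. Its interval at 14759353 to 14759687 held a pair of summits in an intron. The stronger one, at 14759474, had a signal of 560 and a rank of 45. Of the genes with a reproducible summit, 97.9% had a lower strongest signal. The summit stood 1575 bp downstream of the first start site and 1512 bp from the nearest one.

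In replicate 1 this Trl summit ranked 44, with a signal of 324. In replicate 2 the overlapping peak ranked 49, with a signal of 241, but it did not contain the pooled summit, and its own summit was 60 bp away. The weaker summit of the interval, at 14759675, had a signal of 98.3 and matched an entry of rank 8724 in replicate 1. In replicate 2 it overlapped the same peak of rank 49, whose summit was 141 bp away. It was the only one of the 22 summits found in neither leading list by containment. The stronger summit had a GC content of 27.7% in its 101 bp window and the weaker one 58.4%.

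The remaining Trl summit, at 14757179, had a signal of 90.8, near the lowest of the reproducible set, which was 89.8. It lay in a 5′ UTR 157 bp downstream of an internal start site and inside the overlapping gene CG42507. Its rank was 3156 in replicate 1, within the leading list, and 4718 in replicate 2, outside it. Trl also had 9 weaker pooled entries, and 5 of them ranked from 3572 to 4560, just below the reproducible set. The strongest of these, with a signal of 87.3, stood 214 bp upstream of the first start site.

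Clamp encodes a zinc finger protein that binds GA repeats and brings the dosage compensation complex to the male X chromosome. The gene (FBgn0032979) lies on the minus strand of 2L at 22165720 to 22169143. Its summit at 22168945 lay in the 5′ UTR, 198 bp downstream of the start site, with a signal of 96.7 and a rank of 2997. It ranked 3777 in replicate 1 and 3110 in replicate 2, with signals of 48.1 and 47.9, so that only replicate 2 had it in its leading list. A weaker pooled entry of rank 5054 lay 12 bp upstream of the same start, with a signal of 70.9. Of the genes with a reproducible summit, 9.52% had a lower strongest signal than Clamp.

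psq encodes Pipsqueak, a BTB protein that binds GA repeats. The gene (FBgn0263102) lies on the plus strand of 2R at 10557888 to 10617280 and spans 59393 bp, the longest of the 10. It held 7 reproducible summits, all intronic, and 98.3% of the genes with a summit held fewer. The strongest, at 10601618, had a signal of 168 and ranked 672 in replicate 1 and 2116 in replicate 2. The next, at 10582191 and 10564948, had signals of 138 and 129. The other 4 lay at 10600577, 10559959, 10566496 and 10580982, with signals from 126 to 96.1. Each of the 7 was in both full replicate lists, with replicate summits 4 to 89 bp apart. Their ranks ran from 672 to 5520 in replicate 1 and from 1110 to 2856 in replicate 2, so that all 7 were in the leading list of replicate 2, while the summits at 10600577, 10559959 and 10580982 were outside that of replicate 1.

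None of the psq summits was near a start site of the gene. Their distances to the closest of its 5 start sites ran from 1495 to 17932 bp. Per 10 kb of locus psq held 1.14 summits, against a median of 1.97 for all genes with a summit (quartiles 1.10 to 2.83). Those genes hold at least 1 summit each, so short ones have a high density by construction. All reproducible summits over the chromosomes without Y came to 0.254 per 10 kb. The part of span in the psq count was not tested. The locus also held 28 weaker pooled entries, 11 of them with a rank of 10000 or better. The best of these ranked 3449 with a signal of 89.2, just outside the reproducible set. Nearer to start sites, an entry 97 bp from the start at 10568942 ranked 3069 in replicate 1 and overlapped an entry of rank 7104 in replicate 2. A pooled entry 60 bp upstream of the first start ranked 5666, and its matches ranked 10073 in replicate 1 and 4419 in replicate 2.

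mod(mdg4) and Cp190 encode insulator cofactors, and CTCF encodes the DNA-binding insulator protein. mod(mdg4) makes many protein isoforms by trans-splicing, in which exons from separate precursor transcripts are joined to a shared 5′ part. The gene (FBgn0002781) lies on the minus strand of 3R at 21350846 to 21377401, and its 22 annotated transcripts share 1 start site. The annotation also holds 23 precursor genes, named pre-mod(mdg4), of which 9 run on the plus strand and 14 on the minus strand. The locus held 4 reproducible summits.

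The strongest of the mod(mdg4) summits, at 21365397, had a signal of 251 and a rank of 395. Its ranks in replicates 1 and 2 were 431 and 443, with signals of 139 and 109 and summits 17 bp apart. It lay inside the gene body in the 5′ UTR of pre-mod(mdg4)-E, 91 bp from the start of that precursor. It was 212 bp from a start site shared by 7 precursor genes of the other strand. The strongest signal of the locus stood at precursor starts and not at the shared 5′ start.

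The other 3 mod(mdg4) summits had close signals of 155, 152 and 149. The summit at 21350118 lay 728 bp past the 3′ end, in intergenic sequence 517 bp from the start of aus. The summit at 21351152 lay in coding sequence near the 3′ end. The summit at 21376418 lay in an intron 983 bp downstream of the start site and held the GA repeat shown above. Their ranks were 2398, 2396 and 2513 in replicate 1 and 837, 683 and 968 in replicate 2, higher in replicate 2 for all 3. The locus held 11 weaker pooled entries, and the best, of signal 69.1, ranked 2614 in replicate 1 and had no match in replicate 2.

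Cp190 had entries in the leading list of replicate 1 and none in the list of replicate 2. The gene (FBgn0000283) lies on the minus strand of 3R at 15270432 to 15275241, and its first start is 281 bp from the divergent start of CG4338. Replicate 1 had an entry at 15275327, 86 bp upstream of the Cp190 start, with a signal of 174 and a rank of 267. A further entry at 15275527, 5 bp from the CG4338 start, ranked 1281 with a signal of 83.3. Replicate 2 had no entry that overlapped either. The pooled list held 1 entry there, of rank 5738 and signal 65.4, outside the reproducible set. Its summit, at 15275536, lay by the weaker replicate 1 entry, and its interval did not contain the replicate 1 summit of rank 267. Of the 300 highest entries of replicate 1, only 2 (0.667%) overlapped no entry of replicate 2, and the one at Cp190 was among them.

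CTCF had a lower best pooled signal than any other of the 10 genes. The gene (FBgn0035769) lies on the minus strand of 3L at 7353578 to 7356713. Its best pooled entry, at 7356794, stood 81 bp upstream of the start site, with a signal of 44.1 and a rank of 10357. It ranked 9160 in replicate 1 and 14016 in replicate 2. The other pooled entry, at 7353403, ranked 20274 with a signal of 27.7. The lists hold background, and at these ranks any pooled entry was found for 60.7% of all protein-coding genes and for all 10 of these. The nearest reproducible summit was 3701 bp from the gene.

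M1BP and Adf1 encode DNA-binding proteins of promoters. M1BP (FBgn0037621), a zinc finger protein of broadly expressed promoters with paused polymerase, lies on the minus strand of 3R at 8729790 to 8731698. Its summit at 8731913 had a signal of 122 and a rank of 1914. It ranked 1560 in replicate 1 and 3439 in replicate 2, just outside the leading list of 3401, with signals of 75.8 and 45.3. The summit lay between divergent start sites 393 bp apart, 215 bp from that of M1BP and 178 bp from that of CG8202. Its window had a GC content of 5.94%, the lowest of all 3401 reproducible summits.

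Adf1 (FBgn0284249), a MADF-domain transcription factor first described at the alcohol dehydrogenase gene, lies on the plus strand of 2R at 6662265 to 6668085. Its 3 summits fell in an intron of Adf1, 784 to 1283 bp downstream of the first start. The summit at 6663347 had a signal of 237 and ranked 2106 in replicate 1 but 107 in replicate 2. The summit at 6663049 had a signal of 211 and ranked 456 in replicate 1. Replicate 2 had no peak that contained it, and the overlapping peak of rank 107 had its summit 285 bp away. The summit at 6663548 had a signal of 119, ranked 3883 and 926 in replicates 1 and 2, and also lay in an exon of lncRNA:CR45128. The replicates thus placed the highest point of this cluster at different summits. Per 10 kb of locus Adf1 held 3.84 summits, the highest density of the 10 genes.

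**Figure D2:**
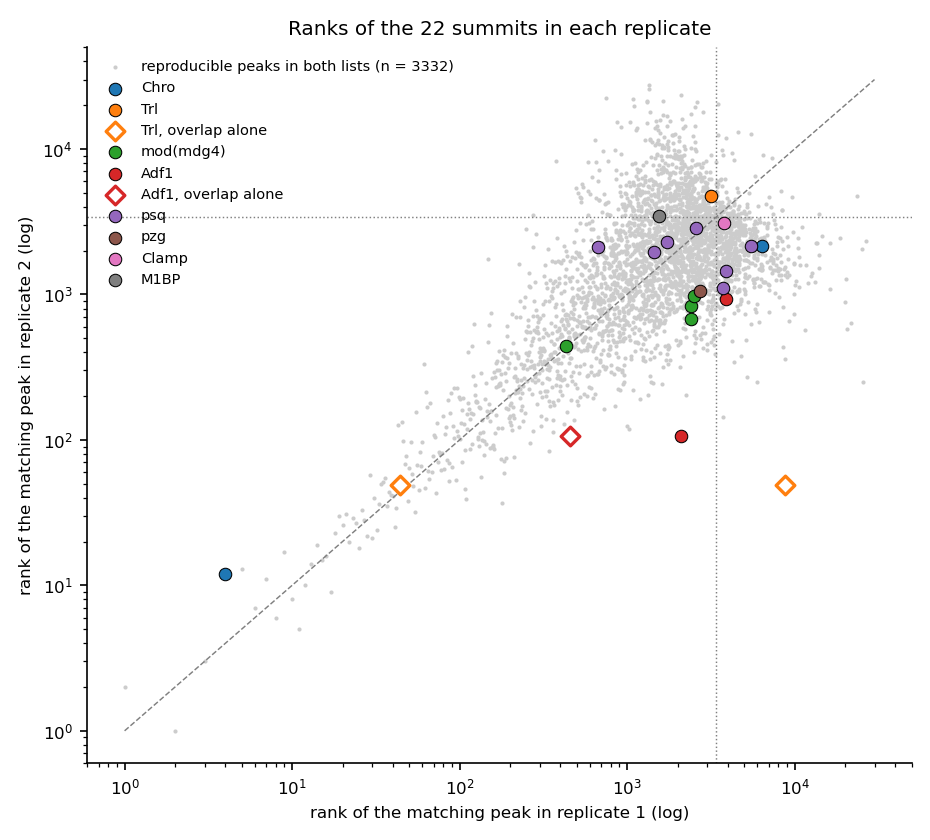
Rank of each of the 22 summits in replicate 1 (x axis) and replicate 2 (y axis), both on log scales, with all reproducible peaks matched in both lists in grey, the limits of the leading lists dotted and equal rank dashed. Filled points are matches that contain the summit and open diamonds are 3 matches by overlap alone. The main Chro peak, at ranks 4 and 12, and the stronger Trl summit, at 44 and 49, lie near the diagonal, and Adf1 lies well below it.

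The replicates were then set side by side over the 22 summits. By containment 15 summits were in the leading list of replicate 1 (68.2%, against 80.3% of all reproducible summits) and 17 in that of replicate 2 (77.3% against 78.6%). Both leading lists held 11 of the 22 against 62.0% of all. Of the 19 summits matched in both full lists, 8 ranked higher in replicate 1 and 11 in replicate 2. Their median gap between replicate summits was 33 bp (quartiles 15.5 to 43), and it was 33 bp (quartiles 11 to 65) for all reproducible summits matched in both. By gene, the leading list of replicate 1 alone gave 8 of the 10 genes, against 20.0% of all genes, and that of replicate 2 gave 7 of the 10, against 19.9%. The genes were chosen on peaks made from both replicates, so neither count is an independent check. Without replicate 1 M1BP was lost, and without replicate 2 Clamp was lost and Cp190 gained.

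Below the reproducible set, the 10 loci held 57 weaker pooled entries, and 20 of them ranked 10000 or better. Both replicate lists held a match for 19 of the 57, and for 3 neither list did. Such shares were not counted over all pooled entries outside the reproducible set, so nothing is read from these counts. psq, mod(mdg4) and Trl held 28, 11 and 9 of the 57, Clamp held 3, and Chro and M1BP held none. Adf1 had 2, the better with a signal of 38.4 and a rank of 12684, and pzg had 1, with a signal of 37.6 and a rank of 13062.

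By signal, the median of the 22 summits was 127, against 129 for all 3401, and 10 of the 22 (45.5%) were among the 1700 strongest. The main Chro peak and the stronger Trl summit were the 2 among the strongest 300. By place, 7 summits (31.8%) lay within 500 bp of a start site of any gene, against 47.1% of all summits. Away from start sites, each summit was counted in an exon of any gene where there was one, then in an intron, then as intergenic. By this order introns held 12 (54.5% against 39.0%), exons 2 (9.09% against 3.12%) and intergenic sequence 1 (4.55% against 10.8%). The psq gene supplied 7 of the 12 intronic summits.

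A summit within 500 bp of a gene's own start was found for Chro, Trl, Clamp and M1BP, 4 of the 10 genes, against 12.7% of all genes. Of the 22 summits, 6 were nearer to the start of another gene than to a start of the gene they were assigned to. These were the mod(mdg4) summits nearest to pre-mod(mdg4)-E and, for 2 of them, to aus, the psq summit at 10601618 nearest to CG11883, and the pzg and M1BP summits nearest to CG12974 and CG8202. The share over all reproducible summits was not counted, so nothing is read from the 6. The 10 genes had a median span of 5046.5 bp, against 2164.5 bp for all genes and 4105.5 bp for genes with a summit. The M1BP span of 1909 bp was below the median of all genes, and the part of span in the counts was not tested.

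**Figure D3:**
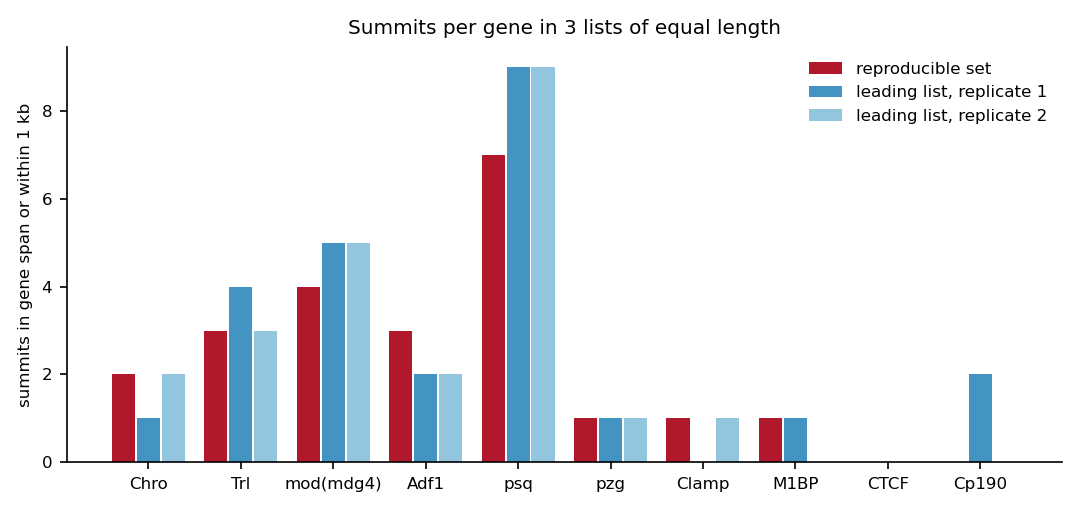
Number of summits in each gene span or within 1 kb of it (y axis) for the 10 genes (x axis), as bars for the reproducible set and for the leading list of each replicate, 3401 entries each. psq has the most in each list, with 7 in the reproducible set and 9 in each replicate, and Cp190 has 2 in replicate 1 alone.

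Base composition varied widely among the summits. The median GC content of the 101 bp windows was 38.6%, against 34.7% over all reproducible summits. It ran from 5.94% at M1BP to 58.4% at the weaker Trl summit. The strongest peaks were not at an extreme, with 31.7% at the main Chro summit and 27.7% at the stronger Trl summit.

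**Figure D4:**
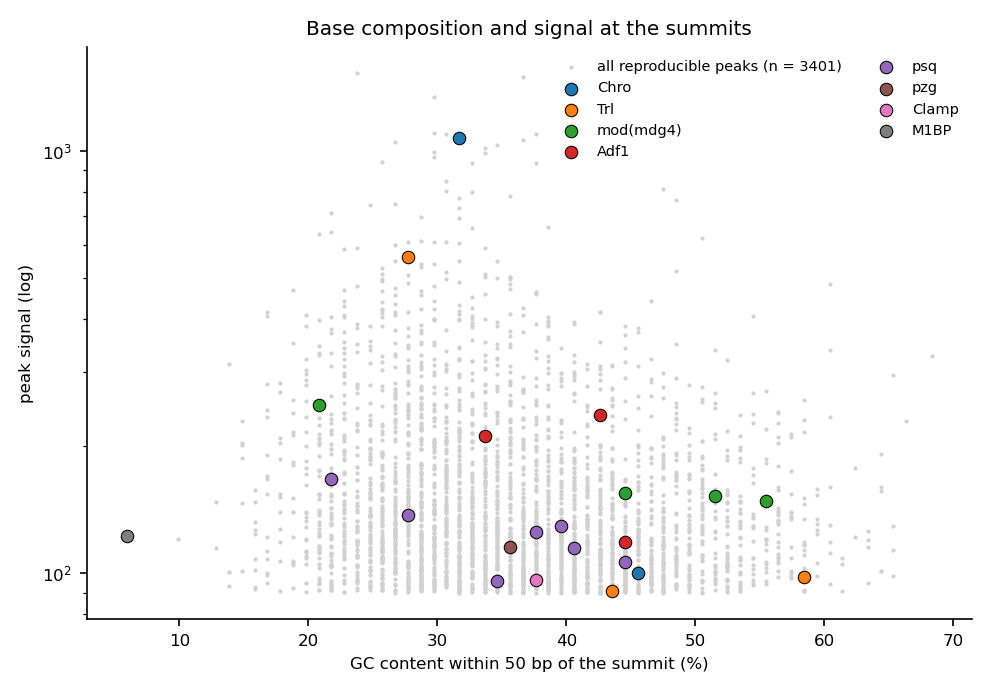
GC content of the 101 bp window around each summit (x axis, percent) against its signal in the reproducible set (y axis, log scale), with the 22 summits coloured by gene and all 3401 in grey. M1BP stands at the left edge with 5.94%, and the main Chro peak stands at the top with a signal of 1073.

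Sequence words were counted on both strands within 50 bp of each summit. GAGAG, the core of the GA-repeat binders, was in 1 of the 22 windows (4.55%), against 11.9% of all 3401 windows. Of windows 500 bp to either side, 11.4% held it for the 22 summits and 14.8% for all 3401. The longer GAGAGAGA, which contains GAGAG, was in the same mod(mdg4) window, 4 bp from the summit, and in 1.00% of all windows. Windows 500 bp to either side of the 22 held GAGAGAGA in 4.55%. TGATAAG was in the weaker Trl window, 41 bp from its summit, and in 4.29% of all windows. AGATAAG, which shares the core GATAAG with it, was in the window of the Adf1 summit at 6663548 and in 2.71% of all. GGTCACAC, TATCGATA and AGGTGGC were in 0 of the 22, and in 0.588%, 0.647% and 0.647% of all windows. As a rule of thumb for independent windows, 0 of 22 allows a share of up to 13.6% (3 in 22). Several of the 22 summits share a locus, so this limit is rough.

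Other architectural genes were looked up to see how the loci of related proteins stood. The lists held 47 genes, and SA and Mtor, which matched no single gene of the annotation, were not analysed here. Of the other 45 genes in 6 lists, 8 (17.8%) held a reproducible summit, against 19.9% of all genes. None of the 14 genes in a broad list of DNA-binding insulator, boundary and related proteins did. They were su(Hw), BEAF-32, dwg, pita, ZIPIC, Ibf1, Ibf2, Elba1, Elba2, Elba3, insv, Dref, pho and phol. The spans of these 14 ran from 775 to 9160 bp, and pita had 1 entry in the leading list of replicate 1. Of 6 cohesin and loader genes, pds5 had a signal of 274 at 180 bp from its start, nearer to the start of Mppe, and SMC3 had 112, while vtd, SMC1, Nipped-B and wapl had no summit. Of 7 condensin genes Cap-D2 had a signal of 109, nearest to the start of Bub3, while Cap-H2, Cap-D3, barr, SMC2, glu and Cap-G had none. None of 5 dosage compensation genes, msl-1, msl-2, msl-3, mle and mof, had a summit. Of 7 BTB genes related to Trl and mod(mdg4), bab1, ttk, chinmo and ab had a summit, with strongest signals of 147, 93.3, 129 and 104, and lolal, bab2 and lov had none. The BTB genes with a summit spanned 21526 to 64721 bp and those without 4098 to 53848 bp. The part of span in the counts of these lists was not tested. JIL-1, the histone kinase that partners Chromator, had a signal of 132 at 37 bp from its start and was the 1 of 6 partner and remodelling genes with a summit, the others being Iswi, E(bx), Nurf-38, Su(var)2-HP2 and l(3)mbt. All 8 had a strongest signal under the 1073 of Chro and the 560 of Trl. Chro and Trl were chosen on these same peaks, so nothing is read from that contrast. The 274 of pds5 was above the 251 of mod(mdg4), the next of the 10 genes.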

How the data were processed

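Peak lists of Eip93F-GFP on dm6 were used. Per the notes deposited with them, the signal of each peak was made by the authors' caller against a control alignment, for each replicate and for both pooled, and the reproducible set of 3401 peaks was derived from those lists. The aligner and the caller were not given in the sources used here. Lists on dm3 were not used. No read counts came with the lists, so depth is unknown.

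Summits were placed on the Ensembl release 115 annotation, and sequence was read from the RefSeq copy of dm6. A summit belonged to a gene within 1000 bp of its span. A replicate matched where its peak contained the summit, the nearest summit winning, and by 1 bp of overlap as an alternative. Further alternatives were other flanks, start distances, word windows, the 1700 strongest peaks and each replicate alone. Counts were made with Python 3.11.15, numpy 2.4.6 and pandas 2.3.3 and tested on simulated data. No significance test was made. The genes and lists were chosen with earlier results of these data known. All 10 genes were named, with the genes nearest to or holding their summits and the genes of the other lists.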

Additional observations from a re-analysis of the deposited data

How the results depend on the processing

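Of 32 alternative values, 20 stayed within 1.5 times the value reported and 12 did not. With the 1700 strongest peaks, genes with a reproducible summit numbered 5 in place of 8 (Chro, Trl, mod(mdg4), Adf1 and psq) and summits 10 in place of 22, and other architectural genes with a summit 3 in place of 8. With the 1700 highest entries as leading lists, 7 summits in place of 15 were in that of replicate 1 and 10 in place of 17 in that of replicate 2. For the other architectural genes the gene span alone gave 4 and a flank of 5000 bp gave 14. A distance of 1000 bp gave 12 summits near a start in place of 7. Counting words within 100 bp of each summit, in place of 50 bp, gave 2 summits with GAGAG in place of 1. Leaving out a replicate gave 1 to 2. A flank of 5000 bp gave 86 weaker entries in place of 57, and a rank of 10000 or better gave 20. Stricter or wider settings change these counts by construction. The gene span alone left 6 of the 10 genes with a summit, without pzg and M1BP, and a flank of 5000 bp gave 9, with CTCF added. No paired analysis was possible because the series has 1 group. Depth is unknown, so an entry missed by 1 replicate cannot be told from one not sequenced deeply enough.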

Other observations

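Just past the 1000 bp flank of mod(mdg4), a reproducible summit with a signal of 257 and a rank of 371 stood 1404 bp upstream of the gene and 172 bp from the start of tin, a homeobox gene of heart development. Its signal was above the 251 of the strongest summit inside the mod(mdg4) locus. The summit nearest to CTCF, with a signal of 135, stood 147 bp from the start of Sec63, and that nearest to Cp190, with a signal of 164, stood 328 bp from a start of Tm1, which encodes tropomyosin.

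The other leading entry of replicate 1 among its highest 300 without an overlapping entry in replicate 2 ranked 79 and lay at GstE13 and Su(var)2-10. Of the 300 highest entries of replicate 2, 1 had none in replicate 1. Over the full leading lists 148 entries of replicate 1 (4.35%) and 76 of replicate 2 (2.23%) had none.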
